A study of Mus musculus with 6 samples.

Results

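Semaphorins, plexins, neuropilins, ephrins and Eph receptors are cell surface and secreted proteins through which cells attract, repel or hold each other. They were described here in macrophages from MSR1 KO and MSR1 WT mice (MSR1 is a macrophage scavenger receptor). Members were all genes of the deposited table whose symbol belongs to these families, 53 of 52550 genes: 20 semaphorins, 11 plexins and neuropilins, 8 ephrins and 14 Eph receptors. The rule reads the symbol alone, although the families were proposed with earlier results of these data known. RNA-seq was performed on macrophages of both genotypes, with 3 libraries for each genotype (MSR1 KO and MSR1 WT). The macrophages were grown from bone marrow of C57BL/6 mice with 25 ng/ml M-CSF for 7 days. They were then co-cultured with BMSCs (bone marrow mesenchymal stem cells) in a transwell system for 48 h. To study macrophage polarization, the paper seeded macrophages in the lower chamber and BMSCs in the upper chamber. It does not state the arrangement for the sequenced macrophages separately. Both genotypes received the co-culture, so the comparison shows the genotype within it and not the co-culture itself. The sources used here give neither the age of the mice nor the part of Msr1 that the allele lacks, and although the study calls the libraries biological replicates, the labels do not say that they came from separate mice, so p-values measure the spread between these libraries.

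Semaphorins are ligands that bind plexins, and the secreted class 3 semaphorins mostly need a neuropilin as co-receptor. Plexins act on integrins, small GTPases and actin, so that a cell changes its shape, adhesion and movement. Ephrins are membrane-bound ligands of Eph receptor tyrosine kinases and signal into the cell that carries them as well as into the cell they touch. In bone and marrow both systems are known for contacts between osteoclasts, their macrophage precursors and osteoblast-lineage cells.

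Total counts per library ranged from 36143518 to 47417448. Counts were scaled by the TMM method to CPM, the counts of a gene relative to the size of its library, and the quasi-likelihood test of edgeR was run on the 16402 genes that passed its filter on low counts. Msr1 itself had 2118, 1825 and 2000 counts in MSR1 KO and 7543, 9163 and 9219 counts in MSR1 WT. The groups did not overlap, with a log2 fold change of -2.02 (SE 0.14, edgeR's quasi-likelihood test with Benjamini-Hochberg adjustment, adjusted p = 0.0012), and reads on Msr1 remained in every MSR1 KO library. All 12 macrophage markers looked for were detected, and their summed level was 25800 to 27000 CPM in MSR1 KO and 26200 to 29000 CPM in MSR1 WT. Markers of stromal cells, the lineage of BMSCs, were also detected and differed between the groups, as described after the members. In bulk RNA, fewer cells of a type and less RNA per cell cannot be told apart.

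Of the 53 members, 42 had enough counts to be tested. Sema4d, the most abundant semaphorin, rose in MSR1 KO macrophages, and 5 members fell: the plexins Plxna1 and Plxnd1, the ephrin Efnb1, the Eph receptor Epha4 and the semaphorin Sema5a. These 6 genes were 14.3% of the tested members at an adjusted p under 0.05 by edgeR's quasi-likelihood test, where 4.91% of all tested genes passed. By direction, 2.25% of all tested genes were called higher and 2.66% were called lower. Under the study's definition of a DEG (fold change above 1.5 and unadjusted p under 0.05), 3 members were higher and 7 were lower. Of all tested genes 8.64% met that definition, with 3.59% higher and 5.05% lower. The median log2 fold change of the 42 members was -0.26, with 13 values above 0 and 29 below 0, beside a median of -0.002 over all tested genes. In 5 members all MSR1 KO libraries lay above all MSR1 WT libraries and in 12 they lay below, while 12.1% of all tested genes lay above and 13.4% lay below in this way. The number of called members rested on single libraries: with the first library of either genotype left out (MSR1 KO replicate 1 or MSR1 WT replicate 1), Plxna1 was the only member called.

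**Figure D1:**
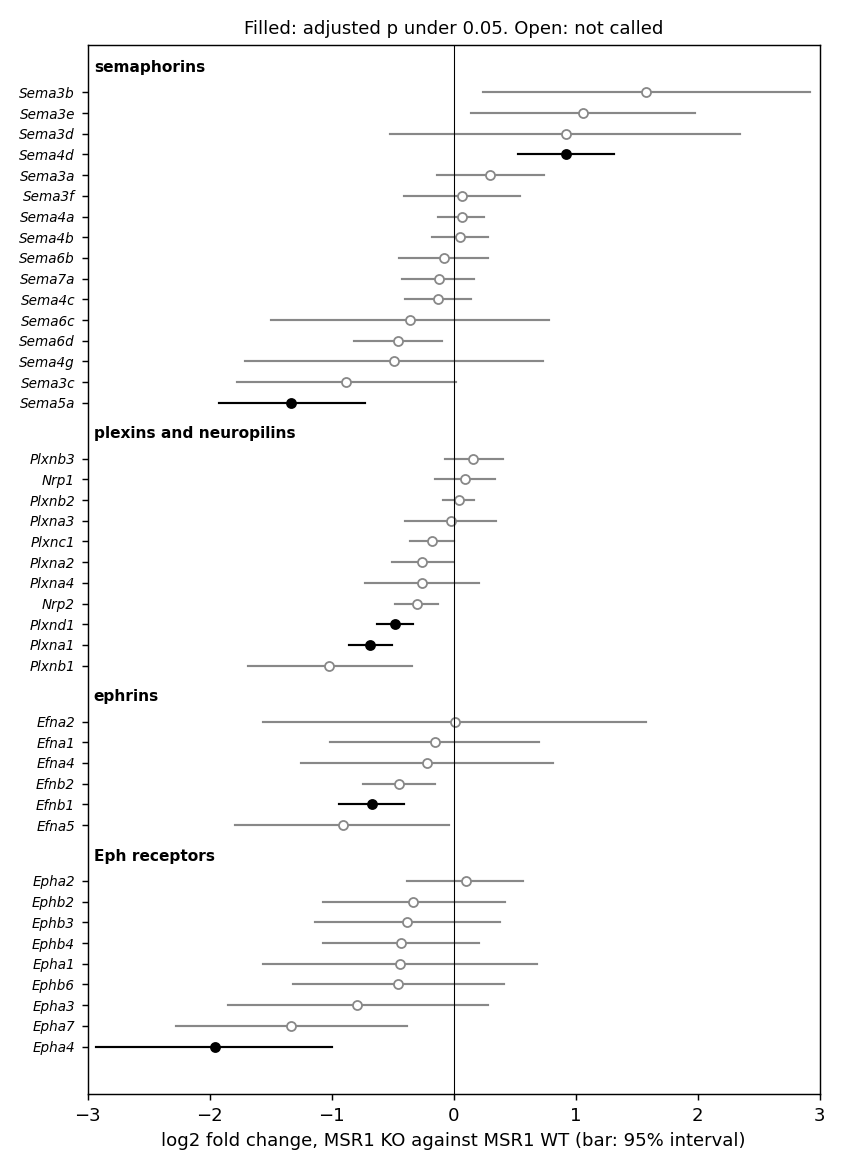
Log2 fold change of each tested member, MSR1 KO against MSR1 WT (horizontal axis), with its 95% interval as a bar, grouped into 4 families. Filled points mark the 6 members with an adjusted p under 0.05 by edgeR's quasi-likelihood test; 29 of the 42 points lie below 0.

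The start regions of the called members are shown because these genes changed in the same comparison, and each window is 300 bases long, from 250 bases before to 50 bases after the RefSeq start site (build GRCm38.p6). The table of windows held 5 of the 6 called members and 47 of the 53 members, and Plxna1 has no window in it. Capitals mark the GC box GGGCGG and the ETS core GGAAGT on either strand, with overlapping matches joined. The windows were Sema4d at chr13:51756634-51756933 on the minus strand, Sema5a at chr15:32244563-32244862 on the plus strand, Plxnd1 at chr6:115994956-115995255 on the minus strand, Efnb1 at chrX:99135811-99136110 on the plus strand and Epha4 at chr1:77515039-77515338 on the minus strand.
Sema4d: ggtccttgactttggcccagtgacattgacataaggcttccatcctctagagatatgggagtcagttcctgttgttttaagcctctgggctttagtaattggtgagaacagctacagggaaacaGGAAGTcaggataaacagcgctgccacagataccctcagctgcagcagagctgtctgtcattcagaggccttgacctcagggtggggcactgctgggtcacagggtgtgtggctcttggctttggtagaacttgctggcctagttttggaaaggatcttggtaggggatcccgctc
Sema5a: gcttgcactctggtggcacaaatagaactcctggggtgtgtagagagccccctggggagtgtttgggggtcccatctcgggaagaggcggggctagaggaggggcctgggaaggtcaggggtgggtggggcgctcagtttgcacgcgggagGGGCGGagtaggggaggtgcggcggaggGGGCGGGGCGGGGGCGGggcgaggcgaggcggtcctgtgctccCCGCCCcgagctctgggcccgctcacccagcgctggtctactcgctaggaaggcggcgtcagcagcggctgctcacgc
Plxnd1: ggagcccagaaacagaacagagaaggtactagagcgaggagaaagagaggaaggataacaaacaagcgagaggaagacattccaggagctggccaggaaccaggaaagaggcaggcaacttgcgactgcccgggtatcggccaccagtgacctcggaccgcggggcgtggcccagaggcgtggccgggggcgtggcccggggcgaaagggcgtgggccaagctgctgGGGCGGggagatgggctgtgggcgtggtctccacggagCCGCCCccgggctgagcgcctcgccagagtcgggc
Efnb1: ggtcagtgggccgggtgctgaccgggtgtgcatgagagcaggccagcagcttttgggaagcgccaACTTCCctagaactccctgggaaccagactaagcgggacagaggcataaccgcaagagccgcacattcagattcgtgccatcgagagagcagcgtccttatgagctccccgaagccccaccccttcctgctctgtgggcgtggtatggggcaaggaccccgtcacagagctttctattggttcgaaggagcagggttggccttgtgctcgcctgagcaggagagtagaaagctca
Epha4: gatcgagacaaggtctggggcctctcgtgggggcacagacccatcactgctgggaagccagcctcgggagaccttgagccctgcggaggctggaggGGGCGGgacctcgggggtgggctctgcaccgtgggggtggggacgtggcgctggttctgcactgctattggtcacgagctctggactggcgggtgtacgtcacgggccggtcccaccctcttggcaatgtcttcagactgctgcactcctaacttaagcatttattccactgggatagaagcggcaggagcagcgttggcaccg
For Sema4d the window furthest upstream of the 3 in the table is shown. It lies within the gene's span, and counts per gene do not show which start site was used.

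The GC content of these windows was 52.0% in Sema4d, 59.7% in Efnb1, 64.0% in Epha4, 67.0% in Plxnd1 and 71.3% in Sema5a. The window of Sema5a held 5 matches to GGGCGG, that of Plxnd1 held 2 and that of Epha4 held 1, whereas those of Sema4d and Efnb1 held 0 matches to it and 1 match each to GGAAGT. The motif GGGCGG was found in 35.7% of all 32851 windows and in 46 of the 61 windows of members (75.4%), and GGAAGT in 23.8% of all windows and in 12 of 61 (19.7%). The other motifs searched on both strands were CCAAT (37.4% of all windows, 32.8% of those of members), TATAAA (13.6% and 1.64%), TGANTCA, the AP-1 site (7.81% and 4.92%), and TGACGTCA, the cyclic AMP response element (1.79% and 1.64%). Of the 5 windows shown, CCAAT had 1 match each in Sema4d, Efnb1 and Epha4, and TATAAA, the AP-1 site and TGACGTCA had 0 matches in all of them. A match is a description of letters and not a bound site.

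Levels were compared between genes as CPM per kilobase of merged exons. Plexins and neuropilins stood above their semaphorin ligands, with sums of 295 CPM per kb in MSR1 KO and 329 in MSR1 WT against 82.1 and 56.6. In the other system the order was turned, and ephrins summed to 7.92 CPM per kb in MSR1 KO and 11.9 in MSR1 WT against 4.23 and 5.03 for Eph receptors. Plxnb2, a receptor of class 4 semaphorins, led all members with 131 ± 2.69 CPM per kb in MSR1 KO and 127 ± 2.53 in MSR1 WT (SD, n = 3).

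The next places were taken by Sema4d, Plxnd1, Nrp1 and Plxna1, with levels of 41.8, 41.1, 40.8 and 38.1 CPM per kb over all 6 libraries. Their order depended on the genotype. In MSR1 WT libraries Plxnd1 (47.8 ± 1.21 CPM per kb) and Plxna1 (47.0 ± 1.14) stood above Nrp1 (39.5 ± 1.01) and Sema4d (28.9 ± 7.87), and the first pair differed by less than its spread (SD, n = 3). In MSR1 KO libraries Sema4d (54.7 ± 0.62 CPM per kb) stood above Nrp1 (42.2 ± 6.59), Plxnd1 (34.3 ± 1.49) and Plxna1 (29.2 ± 2.53). Nrp2 (29.6 CPM per kb over all libraries) and Plxnc1 (27.6) followed. Below Sema4a at 11.2 and Efnb1 at 6.75 CPM per kb, the remaining members had levels of 4.32 CPM per kb or less.

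**Figure D2:**
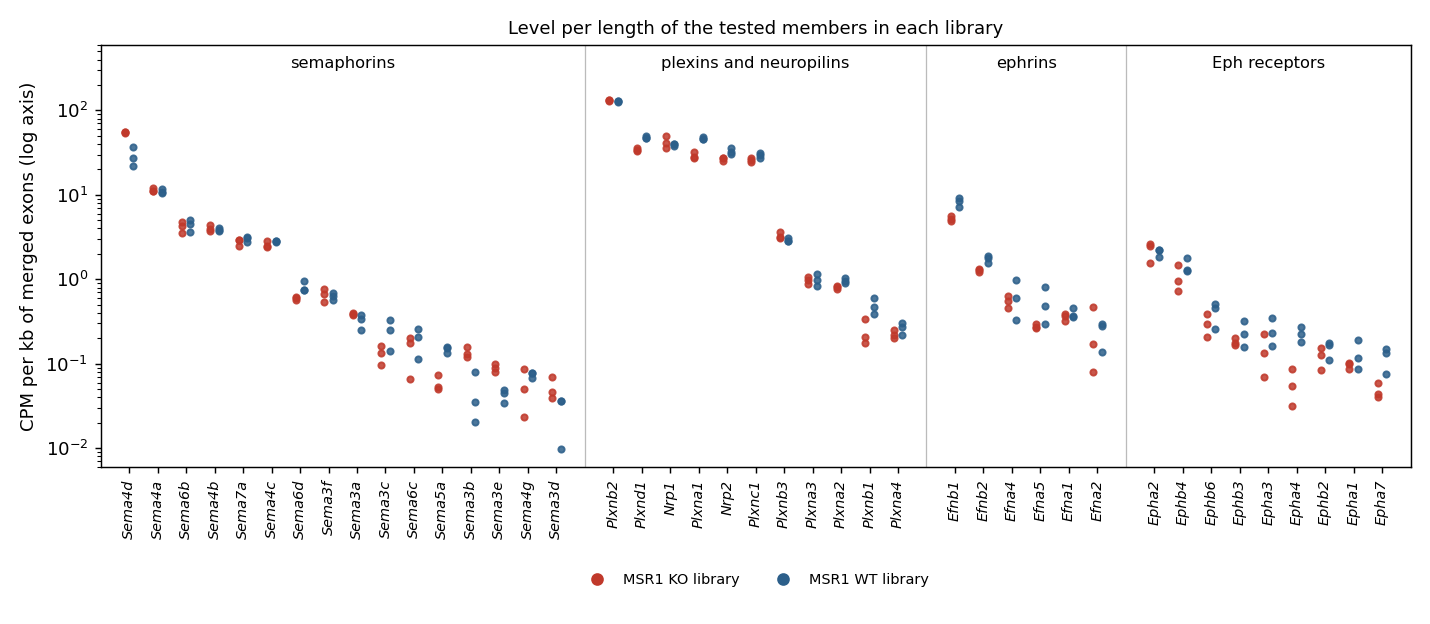
Level of each tested member in CPM per kb of merged exons (vertical log axis), with 1 point for each of the 3 MSR1 KO and 3 MSR1 WT libraries and members ordered by level within 4 families. Plxnb2 lies highest at 131 and 127 CPM per kb, while Sema4d lies at 54.7 in MSR1 KO and 28.9 in MSR1 WT.

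Of 20 semaphorins, 16 were tested, of which 1 rose, 1 fell and 14 did not pass an adjusted p under 0.05 by edgeR's quasi-likelihood test. Sema4d (ENSMUSG00000021451.15, chr13:51701246-51793747) encodes a transmembrane semaphorin that binds plexin-B1, plexin-B2 and CD72 and is known as an osteoclast signal to osteoblasts. Its counts were 15139, 16522 and 19721 in MSR1 KO and 6887, 13599 and 8741 in MSR1 WT. Scaled to depth this was 421, 415 and 424 CPM in MSR1 KO and 167, 286 and 211 CPM in MSR1 WT. All MSR1 KO libraries were higher, and they lay much closer together (SD 4.76 CPM) than the MSR1 WT libraries (SD 60.4 CPM). Sema4d rose by a log2 fold change of 0.92 (SE 0.17, 95% interval 0.53 to 1.31, edgeR's quasi-likelihood test, adjusted p = 0.027). The direction held with each library left out, with log2 fold changes of 0.75 (MSR1 WT replicate 1 left out) to 1.15 (MSR1 WT replicate 2 left out). The adjusted p of edgeR's test was 0.015 when MSR1 WT replicate 2 was left out. It was 0.056 for MSR1 WT replicate 3, 0.062 for MSR1 KO replicate 2, 0.069 for MSR1 KO replicate 3 and for MSR1 WT replicate 1, and 0.084 for MSR1 KO replicate 1.

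Sema4d made up 66.6% ± 0.415 of the summed semaphorin level per length in MSR1 KO and 50.3% ± 6.11 in MSR1 WT (SD, n = 3). The other semaphorins together stood at 27.5 ± 0.338 CPM per kb in MSR1 KO and 27.8 ± 0.941 in MSR1 WT. The next most abundant semaphorins had values near 0: Sema4a, a class 4 semaphorin of immune cells, had a log2 fold change of 0.064 (95% interval -0.13 to 0.25), Sema4b of 0.05 (-0.18 to 0.28), Sema6b of -0.082 (-0.45 to 0.28), Sema7a, a membrane-anchored ligand of plexin-C1 and integrins, of -0.12 (-0.42 to 0.17) and Sema4c, a plexin-B2 ligand, of -0.13 (-0.40 to 0.14). The groups overlapped in each of these genes, and in none of them did the interval reach the fold of 1.5 (0.58 on the log2 scale) in either direction.

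Sema5a (ENSMUSG00000022231.9, chr15:32244813-32696341), a transmembrane semaphorin with thrombospondin repeats, had 50, 40 and 44 counts in MSR1 KO and 121, 120 and 120 counts in MSR1 WT. The groups lay well apart, at 1.11 ± 0.242 CPM in MSR1 KO and 2.79 ± 0.226 CPM in MSR1 WT (SD, n = 3). It fell by 1.33 on the log2 scale (SE 0.26, 95% interval -1.92 to -0.73, edgeR's quasi-likelihood test, adjusted p = 0.03). With any single library left out the log2 fold change was -1.51 to -1.21, but the adjusted p of edgeR's test was 0.061 (MSR1 WT replicate 3 left out) to 0.11 (MSR1 WT replicate 1 left out), so the call needed all 6 libraries.

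Class 3 semaphorins, the secreted ligands, were low, and 5 of the 6 tested genes had log2 fold changes above 0, with a median of 0.61. At an adjusted p under 0.05, edgeR's quasi-likelihood test called 0 of the 6, and DESeq2 also called 0. The unadjusted edgeR p was under 0.05 for 2 of the 6, beside 3096 of all 16402 tested genes. These 2 were Sema3b and Sema3e, which passed as a DEG by the study's definition. Sema3b had 21, 25 and 35 counts in MSR1 KO and 4, 8 and 16 counts in MSR1 WT, with a log2 fold change of 1.58 (95% interval 0.24 to 2.92, edgeR adjusted p = 0.18). With 1 library left out this value was 1.24 to 2.27, with an unadjusted edgeR p of 0.0093 to 0.089. Sema3e, a ligand that binds plexin-D1 without a neuropilin, had 27, 33 and 43 counts against 19, 20 and 13, with a log2 fold change of 1.06 (95% interval 0.14 to 1.98, edgeR adjusted p = 0.2). Left-out libraries gave 0.92 to 1.17 for Sema3e, with an unadjusted edgeR p of 0.046 to 0.092. MSR1 KO libraries were above MSR1 WT libraries throughout in both genes, as they were in Sema3a (log2 fold change 0.30) and Sema3d (0.92, at 4 to 28 counts). The exception in direction was Sema3c, at -0.88 (95% interval -1.78 to 0.02), with overlapping groups. Sema3f, a neuropilin-2 ligand, was at 0.067 (-0.41 to 0.54).

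The remaining tested semaphorins were Sema6d, Sema6c and Sema4g. Sema6d, a ligand of plexin-A1, had 235, 255 and 278 counts in MSR1 KO and 326, 374 and 422 counts in MSR1 WT. The groups did not overlap, and its log2 fold change was -0.46 (95% interval -0.82 to -0.10, edgeR adjusted p = 0.15). Sema6c was at -0.36 and Sema4g at -0.49, each with overlapping groups and at most 63 counts in any library.

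**Figure D3:**
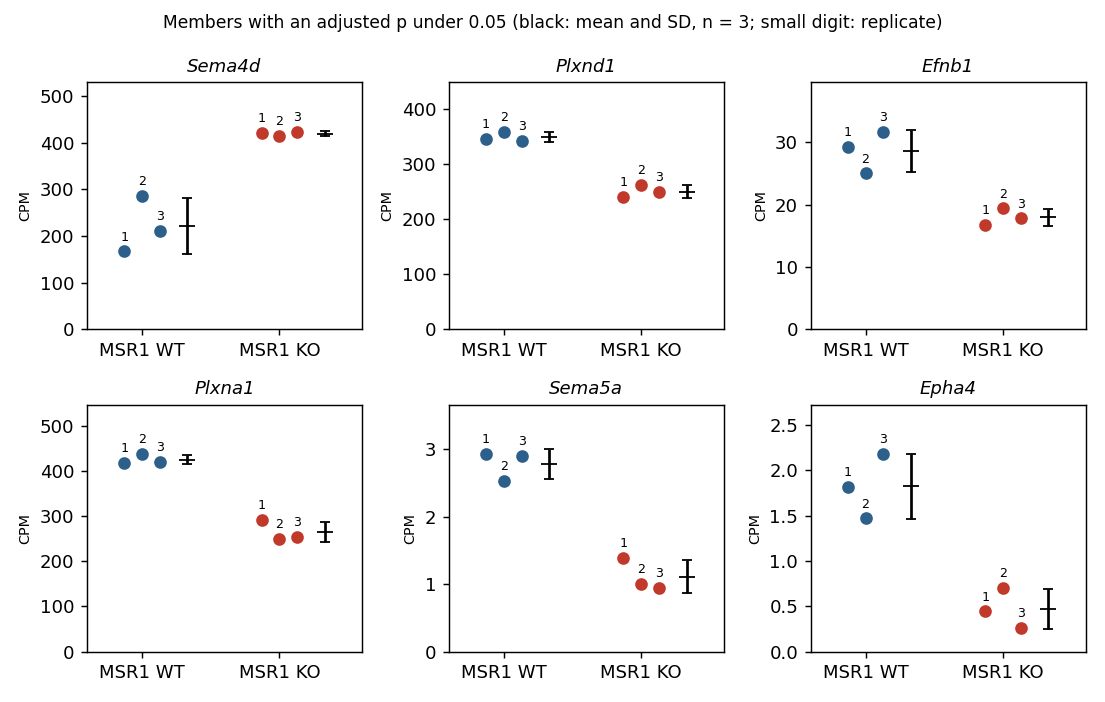
CPM of the 6 members with an adjusted p under 0.05 in each library (points, small digits for the replicate), with the mean and SD (n = 3) in black, on axes that start at 0. The MSR1 KO libraries lie above the MSR1 WT libraries for Sema4d (420 against 222 CPM on average) and below them for the other 5 genes.

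All 11 plexins and neuropilins were tested, and 2 plexins fell by edgeR's quasi-likelihood test. The median log2 fold change was -0.26, with 3 values above 0. Plxna1 (ENSMUSG00000030084.11, chr6:89316314-89362620) encodes a receptor for Sema6D and, with neuropilin-1, for Sema3A, and works with TREM2 and DAP12 in osteoclasts and dendritic cells. Its counts were 10452, 9944 and 11765 in MSR1 KO and 17260, 20754 and 17379 in MSR1 WT. On the CPM scale these were 291, 250 and 253 in MSR1 KO and 418, 437 and 420 in MSR1 WT, so that the highest MSR1 KO library lay far below the lowest MSR1 WT library. Plxna1 fell by 0.69 on the log2 scale to 62.2% of the MSR1 WT level (SE 0.077, 95% interval -0.86 to -0.51, edgeR's quasi-likelihood test, adjusted p = 0.0074). It was called with each of the 6 libraries left out, at log2 fold changes of -0.75 to -0.65 and adjusted p of 0.0082 to 0.041 by edgeR's test. Of its exon bases, 10.7% overlap the opposite-strand gene Gm26811, and the strand setting of the counting is not given in the sources used here.

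Plxnd1 (ENSMUSG00000030123.15, chr6:115954811-115995005) encodes the receptor of Sema3E, which Sema4A also binds. The MSR1 KO libraries had 8637, 10435 and 11596 counts, or 240, 262 and 249 CPM. The MSR1 WT libraries had 14279, 17052 and 14148 counts, or 346, 359 and 342 CPM, and the groups did not overlap. It fell by 0.48 on the log2 scale (SE 0.064, 95% interval -0.63 to -0.33, edgeR's quasi-likelihood test, adjusted p = 0.013), to 71.7% of the MSR1 WT level, which is less than the fold of 1.5 in the study's definition. The adjusted p of edgeR's test was 0.058 without MSR1 KO replicate 1 and 0.063 without MSR1 WT replicate 1, and 0.015 to 0.047 with any other library left out.

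Plxnb2, the most abundant receptor, ranged from 988 to 1020 CPM in MSR1 KO and from 960 to 999 CPM in MSR1 WT, with overlapping groups. Its log2 fold change of 0.043 had a 95% interval of -0.09 to 0.17, the narrowest among the members, so a change of 1.5-fold lay outside it. Plxnb2 made up 44.5% ± 1.3 of the summed plexin and neuropilin level per length in MSR1 KO and 38.6% ± 0.74 in MSR1 WT (SD, n = 3). Nrp1, the co-receptor of Sema3A and of VEGF, had a log2 fold change of 0.095 (95% interval -0.15 to 0.34), and MSR1 KO replicate 2 stood highest at 482 CPM. Nrp2, the co-receptor of Sema3F, had 320, 322 and 299 CPM in MSR1 KO and 419, 385 and 357 CPM in MSR1 WT. Its groups did not overlap, and its log2 fold change was -0.30 (95% interval -0.48 to -0.13, edgeR adjusted p = 0.066), while DESeq2's Wald test put it and Plxnb1 among 7 members called lower.

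Plxnb1, the receptor through which Sema4D acts on osteoblasts, had 61, 129 and 92 counts in MSR1 KO and 238, 175 and 188 counts in MSR1 WT. The groups did not overlap, and the log2 fold change was -1.02 (SE 0.29, 95% interval -1.69 to -0.34). With an adjusted p of 0.099 by edgeR's quasi-likelihood test and 0.027 by DESeq2's Wald test, it passed as a DEG by the study's definition but was called by DESeq2 only. Plxnc1, the receptor of Sema7A, was at -0.18 (95% interval -0.36 to 0.00), and Plxna2, whose groups did not overlap, was at -0.26 (-0.51 to -0.01). The values of Plxnb3 (0.16), Plxna3 (-0.021) and Plxna4 (-0.26) came from overlapping groups.

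Of 8 ephrins, 6 were tested, and 1 of them fell. Efnb1 (ENSMUSG00000031217.8, chrX:99136130-99148991) encodes a transmembrane ligand of EphB receptors that also signals into its own cell. It had 600, 771 and 827 counts in MSR1 KO and 1204, 1187 and 1312 counts in MSR1 WT. At 16.7, 19.4 and 17.8 CPM against 29.2, 25.0 and 31.7 CPM, the MSR1 KO libraries were lower throughout. Efnb1 fell by 0.67 on the log2 scale (SE 0.12, 95% interval -0.94 to -0.41, edgeR's quasi-likelihood test, adjusted p = 0.024). The adjusted p of edgeR's test was 0.064 when MSR1 KO replicate 3 was left out, 0.083 for MSR1 KO replicate 1 and 0.099 for MSR1 WT replicate 1, and it was 0.035 to 0.043 for each of the others. Efnb1 made up 65.6% ± 0.133 of the summed ephrin level per length in MSR1 KO and 69.7% ± 3.8 in MSR1 WT (SD, n = 3).

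Efnb2, the EphB4 ligand that osteoclasts carry, had 302, 357 and 410 counts in MSR1 KO and 537, 576 and 435 counts in MSR1 WT. Scaled to depth, its groups did not overlap (8.73 ± 0.29 against 11.9 ± 1.26 CPM, SD, n = 3), and the log2 fold change was -0.45 (95% interval -0.74 to -0.15, edgeR adjusted p = 0.1). Efna5, a lipid-anchored ligand of EphA receptors, had 40, 43 and 55 counts against 134, 57 and 80, with a log2 fold change of -0.91 (95% interval -1.79 to -0.04, edgeR adjusted p = 0.24). It passed as a DEG by the study's definition. Its value rested in part on MSR1 WT replicate 1 and was -0.48 without that library. Efna4 was at -0.22 (95% interval -1.25 to 0.81), Efna1 at -0.15 and Efna2 at 0.0064, with overlapping groups. Efna4 shares 10.5% of its exon bases with the opposite-strand gene 4731419I09Rik.

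Of 14 Eph receptors, 9 were tested, 1 fell, and 8 of the 9 log2 fold changes were below 0. Epha4 (ENSMUSG00000026235.14, chr1:77367185-77515088), a receptor for ephrins of both the A and the B class, had 16, 28 and 12 counts in MSR1 KO and 75, 70 and 90 counts in MSR1 WT. The MSR1 KO libraries were lower throughout, at 0.469 ± 0.223 CPM against 1.82 ± 0.351 CPM (SD, n = 3). It fell by 1.96 on the log2 scale, the furthest of all tested members (SE 0.42, 95% interval -2.93 to -1.0, edgeR's quasi-likelihood test, adjusted p = 0.039). Of the 6 calls it was the only one lost with no filter on low counts, where edgeR gave an adjusted p of 0.054. Left-out libraries gave log2 fold changes of -2.38 to -1.65, with an adjusted p by edgeR's test of 0.044 when MSR1 KO replicate 2 was left out, 0.083 for MSR1 KO replicate 3, 0.089 and 0.095 for MSR1 WT replicates 2 and 3, 0.12 for MSR1 KO replicate 1 and 0.13 for MSR1 WT replicate 1.

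Epha7 had 21, 16 and 20 counts in MSR1 KO and 55, 36 and 61 counts in MSR1 WT. The groups did not overlap and it passed as a DEG by the study's definition, with a log2 fold change of -1.33 (95% interval -2.28 to -0.38, edgeR adjusted p = 0.12). Epha2, an ephrin-A1 receptor and the most abundant Eph receptor at 2.16 CPM per kb, had 341 to 493 counts in MSR1 KO and 351 to 495 in MSR1 WT. Its groups overlapped, and the log2 fold change was 0.10 (95% interval -0.38 to 0.57). Ephb4, the receptor of ephrin-B2, was at -0.43 (95% interval -1.07 to 0.21), Ephb6, which lacks kinase activity, at -0.46 (-1.32 to 0.41) and Ephb3 at -0.38 (-1.14 to 0.38). The groups overlapped in all 4 tested EphB receptors, in Epha1 (-0.44) and in Epha3 (-0.79), and the fourth EphB receptor, Ephb2, was at -0.33. Intervals of this width do not show that these genes were equal between the groups.

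Too few counts to be tested were found for 11 members, with at most 32 counts in any library. Epha6, Epha8, Epha10 and Sema5b had 0 counts in all 6 libraries, which allows up to 0.0633 to 0.083 CPM per library (3 counts, counting error only). This limit does not allow for the excess of low counts at multiples of 4 that is described below (53 of 82 among the members). Epha5 had 2 counts in a single MSR1 WT library and Ephb1 had 4 in a single MSR1 KO library. Efnb3 reached 8 counts, Sema4f 9, Sema3g 16, Efna3 17 and Sema6a 32, with libraries at 0 in each of these 5 genes.

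The precision of a fold change followed the level. The 7 tested members with at least 100 CPM had a median SE of 0.08 on the log2 scale, and 3 of them were called. Between 5 and 100 CPM there were 13 members with a median SE of 0.13, of which 1 was called. Below 5 CPM there were 22 members with a median SE of 0.40, of which 2 were called.

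Of the proteins that work with semaphorins and their receptors (binding partners, co-receptors and effectors, written from general knowledge), 25 of 28 genes were tested, and 1 rose and 2 fell by edgeR's quasi-likelihood test. Cd72, a surface receptor that Sema4D binds on immune cells, had 5420, 7204 and 8145 counts in MSR1 KO and 4593, 4975 and 5716 counts in MSR1 WT. On the CPM scale the groups did not overlap (151 to 181 against 105 to 138 CPM), and Cd72 rose by 0.52 on the log2 scale (95% interval 0.24 to 0.79, edgeR adjusted p = 0.049). Mical2 and Mical1, actin-oxidizing enzymes that act downstream of plexins, fell by 0.65 (edgeR adjusted p = 0.026) and 0.61 (edgeR adjusted p = 0.037) on the log2 scale. Trem2 and Tyrobp, the partners of plexin-A1 in osteoclasts, were at 0.068 (95% interval -0.12 to 0.25) and 0.057 (-0.14 to 0.26), with overlapping groups.

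Of the effectors of Eph receptors and ephrins, 19 of 21 genes were tested and 1 fell. Src, a kinase that acts downstream of both ephrins and plexins and is needed for bone resorption by osteoclasts, had 516, 411 and 454 counts in MSR1 KO and 800, 1017 and 926 counts in MSR1 WT, and fell by 0.88 on the log2 scale (95% interval -1.25 to -0.51, edgeR adjusted p = 0.027). The median log2 fold change was -0.10 over the semaphorin partners and 0.00 over the Eph and ephrin effectors. With the slit, netrin and repulsive guidance genes, 62 genes of 3 lists were tested, of which 1 rose and 3 fell (6.45%), beside 4.91% of all tested genes. With 1 library left out, edgeR's test called 0 to 1 of these genes higher and 0 to 2 lower, and none in either direction when MSR1 WT replicate 1 or 2 was left out.

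Several families here are also expressed by stromal and endothelial cells, and markers of other cell types differed between the groups. The summed level of 25 stromal markers was 3440, 4350 and 3450 CPM in MSR1 KO and 6000, 4880 and 5410 CPM in MSR1 WT. These groups did not overlap (p = 0.1 by a two-sided exact permutation test, which cannot go lower with 3 libraries a group), and 13 of the 25 markers fell by edgeR's test. DESeq2 called 16 of them lower and 1, Thy1, higher, and each marker was detected. The log2 ratio of the summed stromal level was -0.54, and the median log2 fold change of the 25 markers was -0.64. Beside these stood -0.48 for Plxnd1, -0.67 for Efnb1, -0.69 for Plxna1, -1.33 for Sema5a and -1.96 for Epha4. The stromal level was highest in replicate 2 of MSR1 KO and in replicate 1 of MSR1 WT. Of the 5 members that fell, Epha4, Efnb1 and Plxnd1 had their highest CPM of the MSR1 KO group in replicate 2, and Sema5a and Plxna1 had it in replicate 1. Within MSR1 WT, Sema5a was highest in replicate 1, Plxna1 and Plxnd1 in replicate 2, and Epha4 and Efnb1 in replicate 3. Some of these ranks were close, with Sema5a at 2.93 CPM in replicate 1 and 2.9 CPM in replicate 3. An order within 3 libraries is too short to decide about the stromal level. Plxnb1, which did not pass edgeR's test and was looked at after its values were seen, was highest in replicate 2 of MSR1 KO and replicate 1 of MSR1 WT. The part of the stromal markers in the falls of members was not tested.

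The summed level of 13 endothelial markers was 133 to 163 CPM in MSR1 KO and 81.2 to 129 CPM in MSR1 WT. All 13 had log2 fold changes above 0, with a median of 0.51, and only Pecam1 among them passed edgeR's test. Osteoclast markers summed to 559 to 674 CPM in MSR1 KO and 837 to 856 CPM in MSR1 WT, with 3 of the 8 tested lower (Acp5, Ctsk and Atp6v0d2) and Calcr at 0 in every library. The log2 fold change was above 0 in Ocstamp (0.7), Itgb3 (0.47) and Nfatc1 (0.16), which did not pass edgeR's test. In Nfatc1 all MSR1 KO libraries lay above all MSR1 WT libraries. Dendritic cell markers summed to 19.5 to 28.9 CPM against 79.1 to 147 CPM, mostly through Itgax, which fell and was the marker of that list that edgeR's test called. DESeq2 also called Xcr1, which was higher, and 2 of the 7 tested markers, Xcr1 and Ccr7, were higher DEGs. Plexin-A1 and Src are both known in osteoclasts, and whether the level of osteoclast markers had a part in their falls was not tested. The ranges of T cell, B cell, neutrophil and glial markers overlapped between the groups, with 0.03, -0.07, 0.36 and -0.08 as log2 ratios of their summed levels, and the B cell marker Igll1 was at 0 in every library. Among these, the B cell marker Ebf1 was called lower by edgeR and DESeq2, and DESeq2 alone called the T cell marker Lck and the neutrophil marker Retnlg higher. All 10 neutrophil markers had log2 fold changes above 0, with a median of 0.38. For the macrophage markers the log2 ratio was -0.06, and among them Fcgr1 was called higher and Mrc1 lower.

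**Figure D4:**
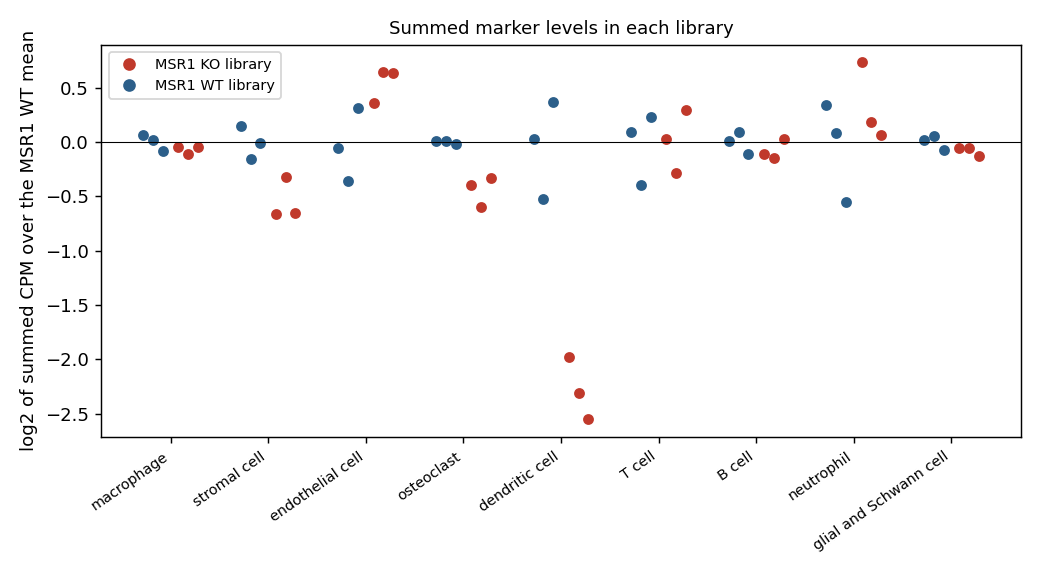
Summed CPM of each marker list in each library as log2 of its ratio to the MSR1 WT mean (vertical axis), with 1 point per library. The MSR1 KO libraries lie below the MSR1 WT libraries for stromal, osteoclast and dendritic cell markers (mean log2 ratios of -0.54, -0.44 and -2.26) and above them for endothelial markers (0.56), and overlap them for macrophage markers.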

How the data were processed

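Total RNA of macrophages was extracted and made into cDNA libraries with an mRNA-seq kit, with 3 libraries per genotype. The paper names TopHat 2.0.11 for alignment, while the submitters' processing notes list fastp 0.17.1, HISAT2 2.1.0, DESeq2 1.18.1 and R 3.4.3. Neither the build nor the program and strand option used for counting is given in the sources used here. The authors deposited raw counts per gene and library, which were used here, together with normalized counts and their own log2 fold changes, p-values and adjusted p-values, which were not used. The paper's methods name FPKM, but the deposited values used are counts.

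Counts were filtered with filterByExpr, scaled by TMM and fitted with edgeR 4.0.16 (glmQLFit, then glmQLFTest) under R 4.3.3, with Benjamini-Hochberg adjustment over 16402 genes and a threshold of 0.05. For standard errors the log2 fold change was divided by the root of the F statistic, and intervals are 95%. The method was tested on simulated counts with 200 genes changed 2-fold and 16019 genes tested. It recovered 52.5% of the changed genes and made 7 other calls. Levels per length used merged exons of the GENCODE annotation of GRCm38, in which 52403 of 52550 identifiers were found, 49909 with the same start and end, and 48 of the 53 members among them. Positions of genes are as deposited. Counting intervals and floors of 3 counts cover counting error only.

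Samples were grouped by the genotype in the labels. The members, the lists and the markers were chosen with earlier results of these data known. Genes named by rule were members that passed a call, the 4 most abundant of each family, untested members, called genes of the other lists and Msr1, and the remaining members were named after their values were seen. Same-numbered libraries of the groups did not deviate together (correlations of -0.026, 0.019 and -0.005), so the replicate number was not used as a block. Alternatives were DESeq2 1.42.0, its size factors in edgeR, library size alone, other filters, the block, each library left out, and counts divided by 4, which was added after seeing the data. Erythroid markers are not reported here.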

Additional observations from a re-analysis of the deposited data

How the results depend on the processing

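Plxna1 was the only member called in every alternative tried. With each library left out in turn, members called at an adjusted p under 0.05 numbered 0 to 1 higher and 1 to 4 lower, members under the study's definition 1 to 3 higher and 5 to 8 lower, genes of the other lists 0 to 1 higher and 0 to 2 lower (0 to 4 and 3 to 10 under the study's definition), and all genes 18 to 407 higher and 53 to 372 lower. The replicate number as a block gave 0 members higher and 1 lower (Plxna1), 0 and 0 genes of the other lists, and 59 and 78 of all genes, but the numbers did not pair the libraries. DESeq2 called 695 and 795 of all genes and 2 and 5 of the other lists. Without a low-count filter edgeR called 237 higher and 288 lower of all genes and 0 higher of the other lists. Library size alone gave 0 and 5 of the other lists, and at least 10 counts in every library gave 0 higher of them under the study's definition. Counts divided by 4 and rounded gave 1 member and 0 genes of the other lists higher under that definition. The cause of these differences was not tested. The median log2 fold change of the members stayed between -0.302 and -0.219, and no log2 fold change of a called member changed sign. Below 5 CPM, with a median SE of 0.40, a 1.5-fold change (0.58 on the log2 scale) was typically not detectable with 3 libraries a group.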

Other observations

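Slits, netrins, repulsive guidance molecules and their receptors form a further guidance system, in which Slit ligands act through Robo receptors and RGM proteins through neogenin. Of 23 such genes in the table, 18 were tested. At an adjusted p under 0.05 edgeR's quasi-likelihood test called 0 of them and DESeq2 called 1 lower, Neo1. The unadjusted edgeR p was under 0.05 for 7 of the 18, beside 3096 of all 16402 tested genes. The median log2 fold change was -0.18, with 10 of 18 values below 0. Under the study's definition of a DEG 4 were lower: Slit2 (247, 424 and 319 counts in MSR1 KO, 459, 706 and 480 in MSR1 WT), its receptor Robo1 (66, 139 and 102 against 133, 206 and 193), Robo2 (0, 18 and 5 against 40, 41 and 40) and Rgma (26, 22 and 20 against 59, 49 and 44). Their log2 fold changes were -0.63 for Slit2, -0.70 for Robo1, -2.30 for Robo2 and -1.05 for Rgma, and the groups overlapped only in Robo1. Of all tested genes, 5.05% were lower under that definition.

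Low counts in the deposited table fell on multiples of 4 more often than on their neighbours. Per library, 335 to 415 genes had 3 counts, 771 to 879 had 4 and 461 to 512 had 5. Of counts between 1 and 40, 31.3% to 33.5% were multiples of 4, where an even spread would give 25%, and among the members 53 of 82 such counts were. With every count divided by 4 and rounded, edgeR's quasi-likelihood test still called 1 member higher and 5 lower. The cause of this pattern was not tested.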
